A study of Mus musculus with 23 samples.

Results

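The receptors of the EGFR (ErbB) family and their ligands were followed across 23 libraries of mouse mammary tumors, as 10 genes among the 47643 gene identifiers of the tables. They are 4 receptors (Egfr, Erbb2, Erbb3 and Erbb4) and 6 ligands (Areg, Ereg, Hbegf, Tgfa, Btc and Egf), each found by its Ensembl identifier. The family was chosen because Egfr had been seen to be higher where IL-38 was inhibited. Egfr values are therefore given as a description without a test, also under γδ TCR blockade, whose control tumors were among those behind that choice, while the other members were tested over all genes.

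All mice were females with the PyMT transgene, which encodes the polyoma virus middle T oncoprotein and gives rise to mammary carcinomas, on a C57BL/6 background. In the neutralization experiment, PyMT WT mice received a human IgG1 isotype control (IgG, 5 libraries) or the IL-38 neutralizing antibody e04 (anti-IL-38, 6 libraries) each week over 5 weeks, beginning when the first tumor measured 0.6 cm. In the γδ TCR experiment, treatment started at 13 weeks of age and also ran for 5 weeks. It comprised PyMT WT mice with Armenian hamster IgG (WT IgG, 4 libraries), PyMT IL-38 KO mice with the same IgG (KO IgG, 4 libraries) and PyMT IL-38 KO mice with the anti-γδTCR antibody UC7-13D5 (KO anti-γδTCR, 4 libraries). The IL-38 KO strain is C57BL/6N and lacks the gene in all cells, so that genotype and any substrain difference brought in by the cross cannot be told apart. The γδ TCR antibody is described as blocking the receptor rather than removing the cells. RNA came from dissociated whole tumors, in which fewer cells of a type and less RNA per cell cannot be told apart.

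ErbB receptors are receptor tyrosine kinases that act as pairs. A bound ligand opens the receptor for pairing, the kinases phosphorylate each other, and the signal passes to the Ras-MAPK and PI3K pathways. Egf, Tgfa and Areg bind Egfr, while Btc, Hbegf and Ereg bind both Egfr and Erbb4. Erbb2 has no known ligand and serves as a partner, and Erbb3 binds neuregulins but has little kinase activity of its own. Ligands are made as membrane proteins and are released by proteases such as Adam10 and Adam17. In the mammary gland, Areg is the ligand through which estrogen drives ductal growth in puberty, Erbb4 takes part in lactation, and Erbb2 is amplified in a subset of human breast cancers.

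The promoters of Egfr, whose level chose the family, and of Areg, the member with the largest difference between anti-IL-38 and IgG, are shown here. They span 250 bases before to 50 bases after the transcript start in RefSeq on GRCm38.p6, at chr11:16751953-16752252 (plus strand) for Egfr and chr5:91139349-91139648 (plus strand) for Areg. Capitals mark exact matches on either strand to the GC box GGGCGG, the TATA box TATAAA, the cAMP response element TGACGTCA, the AP-1 site TGACTCA or the RBPJ core TGGGAA.
Egfr: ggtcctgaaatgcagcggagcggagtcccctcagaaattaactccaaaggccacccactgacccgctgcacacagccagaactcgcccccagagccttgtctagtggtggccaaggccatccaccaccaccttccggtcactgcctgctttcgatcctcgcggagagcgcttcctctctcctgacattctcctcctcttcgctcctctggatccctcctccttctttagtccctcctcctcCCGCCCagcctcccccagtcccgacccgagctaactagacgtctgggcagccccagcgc
Areg: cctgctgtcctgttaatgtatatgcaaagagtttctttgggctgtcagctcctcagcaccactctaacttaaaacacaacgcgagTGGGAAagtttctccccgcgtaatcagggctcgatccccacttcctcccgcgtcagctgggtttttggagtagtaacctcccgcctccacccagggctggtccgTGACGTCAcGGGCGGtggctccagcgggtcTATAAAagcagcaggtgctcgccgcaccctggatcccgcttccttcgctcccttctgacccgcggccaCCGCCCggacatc
The Egfr promoter held 1 GC box, which began 9 bases before the start, and none of the other motifs. The Areg promoter held a TATA box 31 bases, a GC box 52 bases, a cAMP response element 61 bases and an RBPJ core 165 bases before the start, and a further GC box 38 bases after it, with no overlap among them. Of 32851 promoters of the same length, 35.7% held a GC box, 13.6% a TATA box, 1.79% a cAMP response element, 5.20% an AP-1 site and 25.6% an RBPJ core. A promoter was found for 7 of the 10 members, and those of Erbb2, Erbb4, Btc and Egf held none of the 5 motifs, while that of Tgfa held GC boxes beginning 126 and 15 bases before the start. These matches describe the letters of the window and not binding.

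Values stand on 2 scales. Counts per 1000000 reads of a library (CPM) set all 5 groups side by side. Normalized counts, as deposited, serve within a comparison, and the KO IgG libraries carry other normalized counts in the table of 19 libraries than in the table of 8 libraries with the γδ TCR comparison, as each table was scaled by itself. The 3′ method reads about 1 end per transcript and values were not set per length, so each member was compared between groups and not with other members.

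Libraries held 6273049 to 15879164 reads. KO IgG replicate 4 and all 4 KO anti-γδTCR libraries stood apart from the other 18. In these 5, processed pseudogenes took 1.31% to 1.98% of reads and the transcript Gm42418 11.3% to 20.1%, against 0.0943% to 0.191% and 2.62% to 5.70% elsewhere, and the summed level of 8 macrophage markers was 833 to 1436 CPM against 7351 to 19475. The 5 libraries carry neighbouring sample numbers (19 to 23) in the column headers. Whether they were prepared together is not given in the sources used here, and whether the label of KO IgG replicate 4 holds was not tested. Most log2 fold changes of the members that rest on KO IgG tumors are therefore given with and without this replicate. The Egfr value for the antibody effect minus the knockout effect and the medians over members are given only with it. Il1f10, the gene of IL-38, had 0 reads in all 23 libraries and could not check the labels. All 12 luminal epithelial markers were detected in every library.

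**Figure D1:**
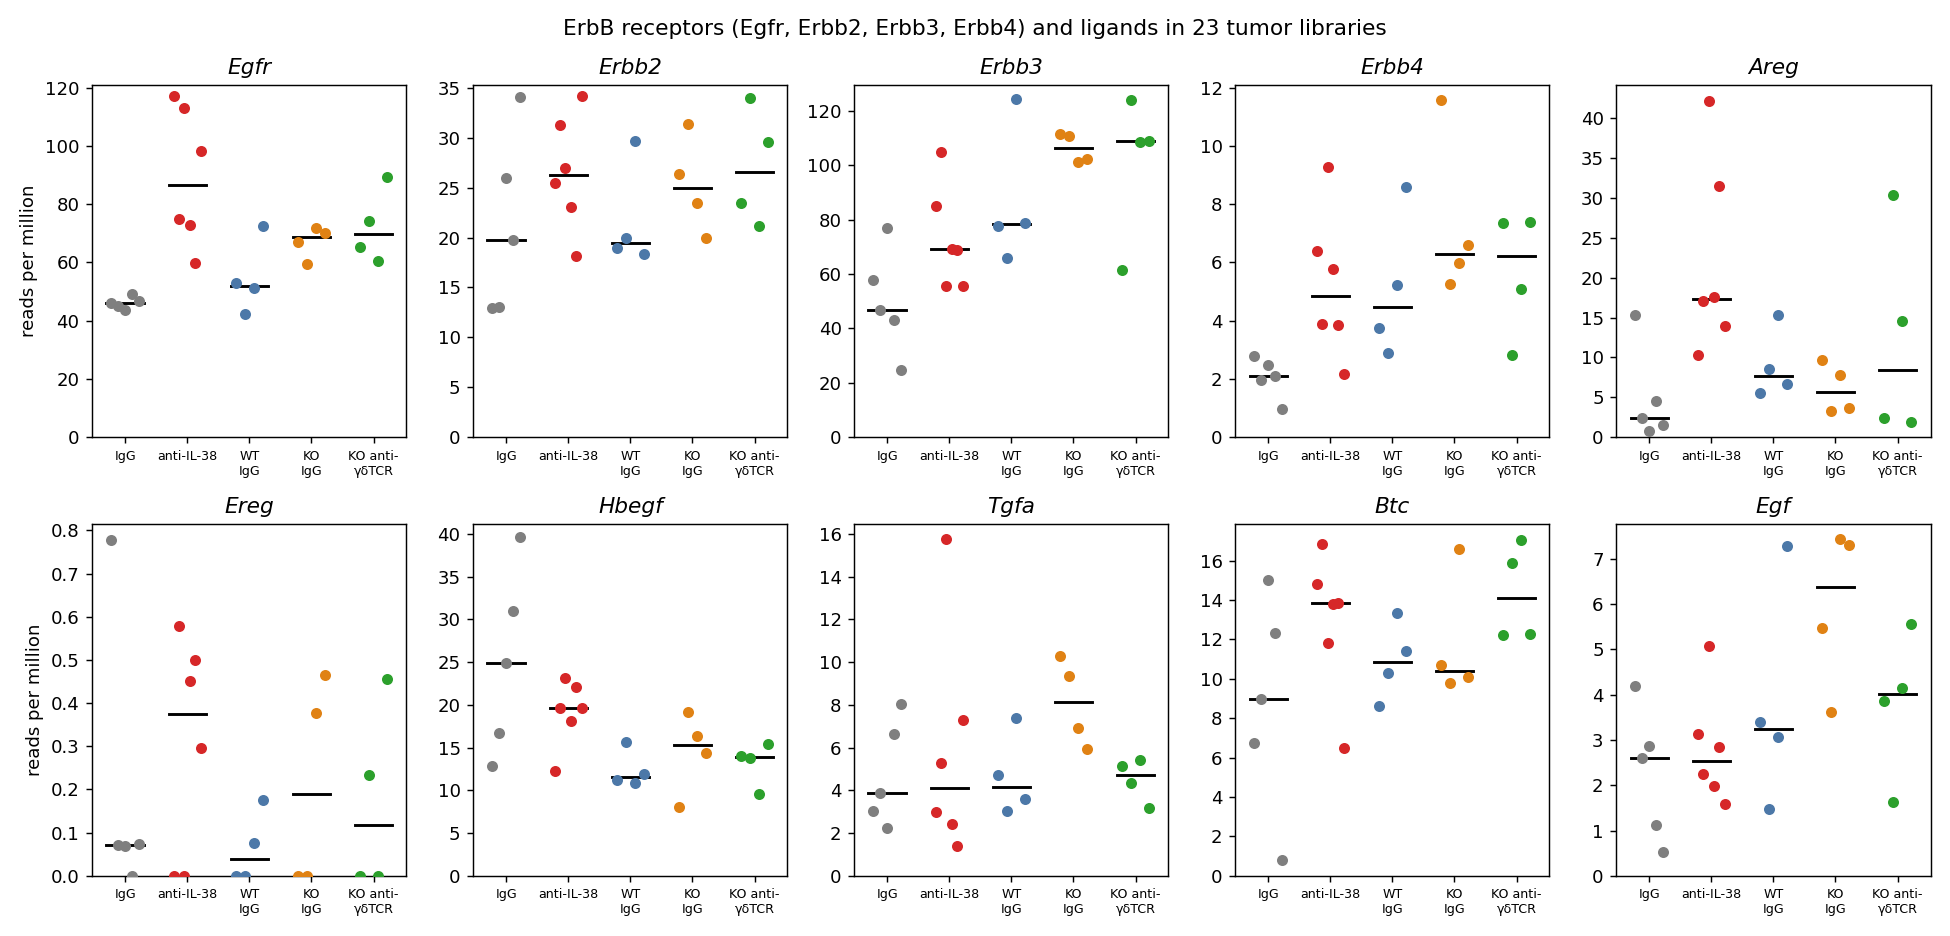
CPM of the 10 members in each library (points) by group, with the group median as a line and for each gene its own linear axis from 0. Egfr lay between 43.5 and 49.2 in the 5 IgG tumors and between 59.7 and 117 in the 6 anti-IL-38 tumors, and Areg lay above 10 in every anti-IL-38 tumor.

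Egfr was lowest and most even in the IgG tumors of the neutralization experiment, with 46.1, 45.0, 43.5, 49.2 and 46.8 CPM. In the 6 anti-IL-38 tumors it ran from 59.7 through a median of 86.6 to 117, without overlap with the controls. WT IgG tumors had 53.1, 42.3, 51.1 and 72.5 CPM. The single WT IgG tumor at 72.5 was above every KO IgG tumor, which had 67.2, 59.5, 71.9 and 70.3. KO anti-γδTCR tumors had 65.2, 74.3, 60.4 and 89.3. By medians the order was anti-IL-38, KO anti-γδTCR (69.7), KO IgG (68.7), WT IgG (52.1) and IgG (46.1), and each neighbouring pair in that order overlapped.

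In normalized counts, Egfr had a mean of 1175 ± 345 (SD, n = 6) with anti-IL-38 and 582 ± 20.1 (SD, n = 5) with IgG, a log2 fold change of 0.96. The treated tumors were spread from 740 to 1647, and the controls lay within 561 to 606. Leaving out each tumor in turn kept the log2 fold change between 0.85 and 1.08. Of all genes, 0.4% had every anti-IL-38 tumor above every IgG tumor, and Egfr, selected on these values, was the member among them. Between genotypes, Egfr had 801 ± 77.7 (SD, n = 4) in KO IgG and 639 ± 142 (SD, n = 4) in WT IgG tumors, a log2 fold change of 0.35, and 0.31 without KO IgG replicate 4. All 4 KO tumors lay above the WT median, and 2 above every WT tumor. Over both experiments the 10 tumors with IL-38 inhibited had 1025 ± 325 (SD) and the 9 controls 607 ± 93.1 (SD), a log2 fold change of 0.71 (0.73 without KO IgG replicate 4), and all 10 lay above the control median.

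Erbb4, which binds neuregulins, Btc and Hbegf, was higher with anti-IL-38 in most tumors without passing the test. Its normalized counts were 34.0, 24.8, 32.1, 25.8 and 12.4 with IgG and ran from 27.9 through a median of 63.2 to 135 with anti-IL-38. Of the 6 treated tumors, 5 lay above every control. The log2 fold change was 1.30 ± 0.39 (SE; 95% interval 0.47 to 2.13; limma, adjusted p = 0.412, unadjusted 0.00467), and over the alternatives the adjusted p ran from 0.0639, in DESeq2, to 0.589. Few reads stood behind it, at 13 to 36 per library in the controls and 22 to 117 in the treated tumors. KO IgG tumors had 137, 61.2, 71.7 and 80.4 normalized counts and WT IgG tumors 42.8, 34.9, 60.9 and 99.9. The WT tumor at 99.9 lay within the KO range, and the log2 fold change of 0.59 ± 0.36 (SE; 0.61 without KO IgG replicate 4) had an adjusted p = 0.507 in limma. In CPM IgG tumors were the lowest of the 5 groups, at 0.968 to 2.80, apart from the WT IgG tumors at 2.89 to 8.61.

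Erbb3, which signals mainly through its partners, had 701, 597, 1003, 530 and 314 normalized counts with IgG. With anti-IL-38 it ran from 713 through a median of 878 to 1372, and all 6 tumors lay above the control median but only 2 above every control. The log2 fold change was 0.66 ± 0.25 (SE; 95% interval 0.13 to 1.20; limma, adjusted p = 0.425, unadjusted 0.0189). KO IgG tumors were even, at 1315, 1294, 1214 and 1244, and WT IgG tumors had 890, 795, 1453 and 915. The KO values lay above 3 of the WT values and below the fourth (log2 fold change 0.36 ± 0.18 SE; limma, adjusted p = 0.437; 0.37 without KO IgG replicate 4).

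Erbb2, the partner without a ligand, had 157, 166, 339, 243 and 436 normalized counts with IgG and 225 to 439 (median 357) with anti-IL-38. The IgG range took in 5 of the 6 treated tumors. The log2 fold change was 0.45 ± 0.27 (SE; limma, adjusted p = 0.546), and 0.25 ± 0.20 (SE; adjusted p = 0.617) for KO against WT, or 0.35 without KO IgG replicate 4.

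Areg differed most under the antibody. It had normalized counts of 187, 30.3, 9.80, 56.2 and 19.1 with IgG and ran from 129 through a median of 226 to 614 with anti-IL-38. All 6 treated tumors lay above the control median and 4 above every control, since IgG replicate 1, at 187, reached into the treated range. The log2 fold change was 2.78 ± 0.61 (SE; 95% interval 1.47 to 4.09; limma, adjusted p = 0.326, unadjusted 0.000471). Over the alternatives it stayed between 2.30 and 3.37 and the adjusted p between 0.109 and 0.578, so that it passed in none. Reads per library were 11 to 198 in the controls and 138 to 532 in the treated tumors.

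Between genotypes Areg went the other way. KO IgG tumors had 114, 38.7, 92.9 and 43.7 normalized counts and WT IgG tumors 62.7, 104, 179 and 77.4. Of the 4 KO tumors, 2 lay below every WT tumor and the other 2 within the WT range. Its log2 fold change was -0.57 ± 0.41 (SE; limma, adjusted p = 0.581), and leaving out single libraries moved it between -0.84 and -0.28, with -0.39 without KO IgG replicate 4. In an interaction term over the 19 libraries the antibody effect exceeded the knockout effect by 3.36 ± 0.86 (SE) on the log2 scale (95% interval 1.57 to 5.14; limma, adjusted p = 0.491, unadjusted 0.000832), which did not pass over all genes either. Without KO IgG replicate 4 it was 3.17. The control groups themselves differed, with a median of 90.6 normalized counts in WT IgG and 30.3 in IgG tumors. They came from different experiments with different isotypes and starting rules, which cannot be told apart.

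**Figure D2:**
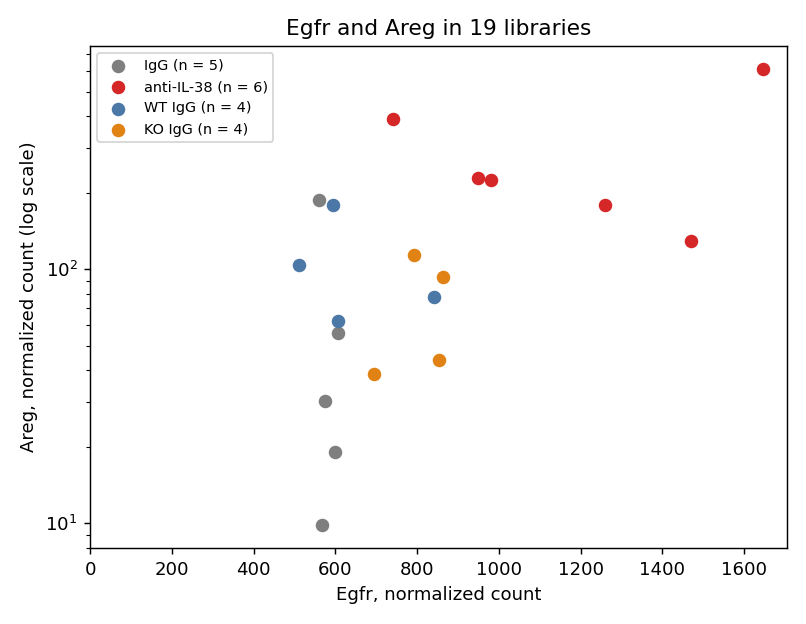
Normalized counts of Egfr (linear axis from 0) and Areg (log axis) in the 19 libraries of the neutralization and genotype comparisons, 1 point per tumor. The anti-IL-38 tumors were high in Areg over a wide range of Egfr, and Pearson's r was 0.55 over the 19 libraries but -0.04 over deviations from the group means.

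Tgfa, an Egfr ligand made by many epithelial tumors, was higher in KO than in WT tumors without passing the test. KO IgG tumors had 122, 109, 83.1 and 71.9 normalized counts and WT IgG tumors 53.8, 36.8, 85.9 and 41.8. All 4 KO tumors lay above the WT median and 2 above every WT tumor. The difference on the log2 scale was 0.86 ± 0.30 (SE; 95% interval 0.20 to 1.51; limma, adjusted p = 0.315, unadjusted 0.0149), and 0.99 (adjusted p = 0.199) without KO IgG replicate 4. Over the alternatives the adjusted p ran from 0.102 to 0.635. In the neutralization experiment Tgfa had 36.8, 49.6, 29.4, 82.0 and 103 with IgG and ran from 17.6 through a median of 53.1 to 230 with anti-IL-38. The treated tumors lay on both sides of the controls, and the log2 fold change of 0.06 ± 0.56 (SE) became -0.34 without anti-IL-38 replicate 3, the tumor at 230.

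Btc, which binds Egfr and Erbb4, had 82.1, 114, 196, 152 and 10.5 normalized counts with IgG and 83.6 to 220 (median 176) with anti-IL-38. The low control was IgG replicate 5, without which the log2 fold change of 1.03 ± 0.58 (SE; limma, adjusted p = 0.533) was 0.32. For KO against WT it was 0.12 ± 0.23 (SE; limma, adjusted p = 0.855), or 0.17 without KO IgG replicate 4. Egf rested on few reads, 7 to 54 per library with IgG and 16 to 64 with anti-IL-38. Its log2 fold changes were 0.56 ± 0.49 (SE; limma, adjusted p = 0.681) for the antibody, or 0.15 without IgG replicate 5, and 0.82 ± 0.43 (SE; adjusted p = 0.457) for the knockout, or 0.69 without KO IgG replicate 4. Hbegf, the heparin-binding ligand, had 157, 213, 325, 382 and 507 normalized counts with IgG and 154 to 337 (median 254) with anti-IL-38, and 5 of the 6 treated tumors lay below the control median. Its log2 fold change was -0.25 ± 0.28 (SE; limma, adjusted p = 0.756) for the antibody and 0.19 ± 0.27 (SE; adjusted p = 0.795) for the knockout, or 0.16 without KO IgG replicate 4. With single libraries left out these ran from -0.47 to -0.051 and from 0.042 to 0.45.

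Ereg was barely detected, with 54 reads in all 23 libraries, reads in 14 of them, more than 3 reads in 7, and at most 10, in IgG replicate 1. It did not reach the mean normalized count of 5 needed for a test. Where a library had no read of it, counting error alone leaves room for a level of at most 0.224 to 0.478 CPM, set by the depth of the library.

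In the pooled comparison of IL-38 inhibited with control tumors, 0 of the 8 members counted passed an adjusted p of 0.05 in limma, edgeR or DESeq2. Of all 16352 genes 0% passed in limma, where 1725 had an unadjusted p under 0.05, and edgeR called 1 gene and DESeq2 70. At an unadjusted p under 0.05, 4 of the 8 were higher and 0 lower, against 6.42% of all genes that were higher. They were Erbb4 (log2 fold change 0.97 ± 0.32 SE; limma, adjusted p = 0.331), Areg (1.38 ± 0.54; adjusted p = 0.391), Erbb3 (0.51 ± 0.21; adjusted p = 0.404) and Erbb2 (0.37 ± 0.18; adjusted p = 0.473, unadjusted 0.0499). Over the alternatives this count of 4 ran from 2 to 5. The values of Erbb2, Erbb3 and Erbb4 were positive in both experiments, whereas Areg was at 2.78 in one and -0.57 in the other. Tgfa, Btc and Egf were at 0.38, 0.63 and 0.63, and Hbegf at -0.03. Single libraries moved these values, and the lowest with 1 library left out were 0.19 for Tgfa, 0.25 for Btc and 0.39 for Egf. Without KO IgG replicate 4 the pooled values were 0.95 for Erbb4, 1.57 for Areg, 0.48 for Erbb3, 0.42 for Erbb2, 0.38 for Tgfa, 0.67 for Btc, 0.52 for Egf and 0.00012 for Hbegf.

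Within the antibody comparison, 0 of 8 members passed in limma, edgeR or DESeq2, as did 0% of 16002 genes in limma (1682 had an unadjusted p under 0.05; edgeR called 0 and DESeq2 75). At an unadjusted p under 0.05, 3 of 8 (Erbb3, Erbb4 and Areg) were higher, against 5.61% of all genes. Between genotypes 0 of 8 passed in the 3 tools, against 0.00604% of 16563 genes in limma, and 1 of 8 (Tgfa) was higher at an unadjusted p under 0.05, against 6.73%. This count became 3 without WT IgG replicate 4 and 2 without WT IgG replicate 3 or KO IgG replicate 1 or 2. For the antibody effect minus the knockout effect, 0 members passed, against 0.00612% of 16352 genes, and Areg alone of the 8 was higher at an unadjusted p under 0.05, against 4.24%. Egfr gave 0.61 there, as a description. The median log2 fold change of the 8 members other than Egfr was 0.57 pooled, 0.61 for the antibody and 0.31 for the knockout, where that of all genes was 0.0047, 0.0019 and 0.0053.

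**Figure D3:**
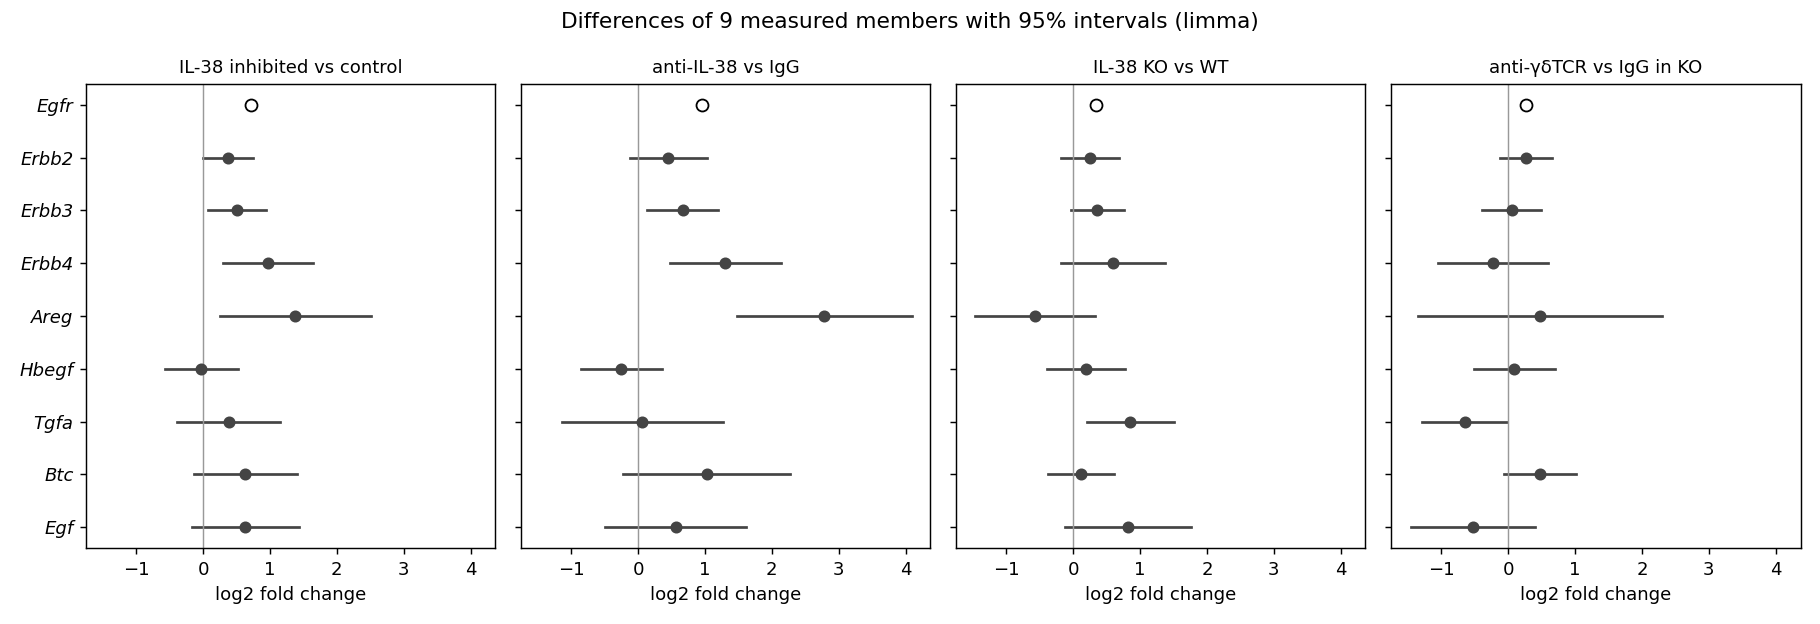
Log2 fold changes of the 9 members with enough reads in 4 comparisons, with 95% intervals from limma as bars. Egfr is an open circle without interval, as its level chose the family, and in the antibody comparison the intervals of Areg, Erbb4 and Erbb3 lie above 0 although their adjusted p-values were 0.326, 0.412 and 0.425 in limma.

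Single tumors carried much of the spread. Anti-IL-38 replicate 3 was the highest of its group for Erbb4, Areg, Hbegf, Tgfa and Egf in CPM. IgG replicate 5 was the lowest of its group for Erbb3, Erbb4, Btc and Egf and the highest for Erbb2, Hbegf and Tgfa. The same library had the lowest luminal epithelial sum of its group (12 genes, 1946 CPM against a median of 2505) and the highest cell cycle sum (8 genes, 1539 against 727) and neutrophil sum (6 genes, 166 against 60.3). Over groups, luminal sums were 1946 to 3861 with IgG and 2814 to 5542 with anti-IL-38, and all 12 luminal genes had positive log2 fold changes under the antibody, 4 of them at an unadjusted p under 0.05 and 0 after adjustment in limma. Under the antibody the 8 cell cycle genes were all negative, 3 of them at an unadjusted p under 0.05. The same 8 genes were all positive between genotypes (median 0.24, 1 at an unadjusted p under 0.05). There, 7 of the 12 luminal genes were positive, with 2 higher and 2 lower at an unadjusted p under 0.05. Between genotypes all 10 adipocyte genes were negative (median -1.05, 5 at an unadjusted p under 0.05), as were 8 of 9 basal and myoepithelial genes (3 at an unadjusted p under 0.05). All 8 macrophage genes were negative too (median -0.57, 2 at an unadjusted p under 0.05), with the low KO IgG replicate 4 included. All 8 skeletal muscle genes (median 2.25) and all 7 milk protein genes (median 1.11, 1 at an unadjusted p under 0.05) were positive. None of these passed after adjustment in limma, and the part of these cell types in the differences of the members was not tested.

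**Figure D4:**
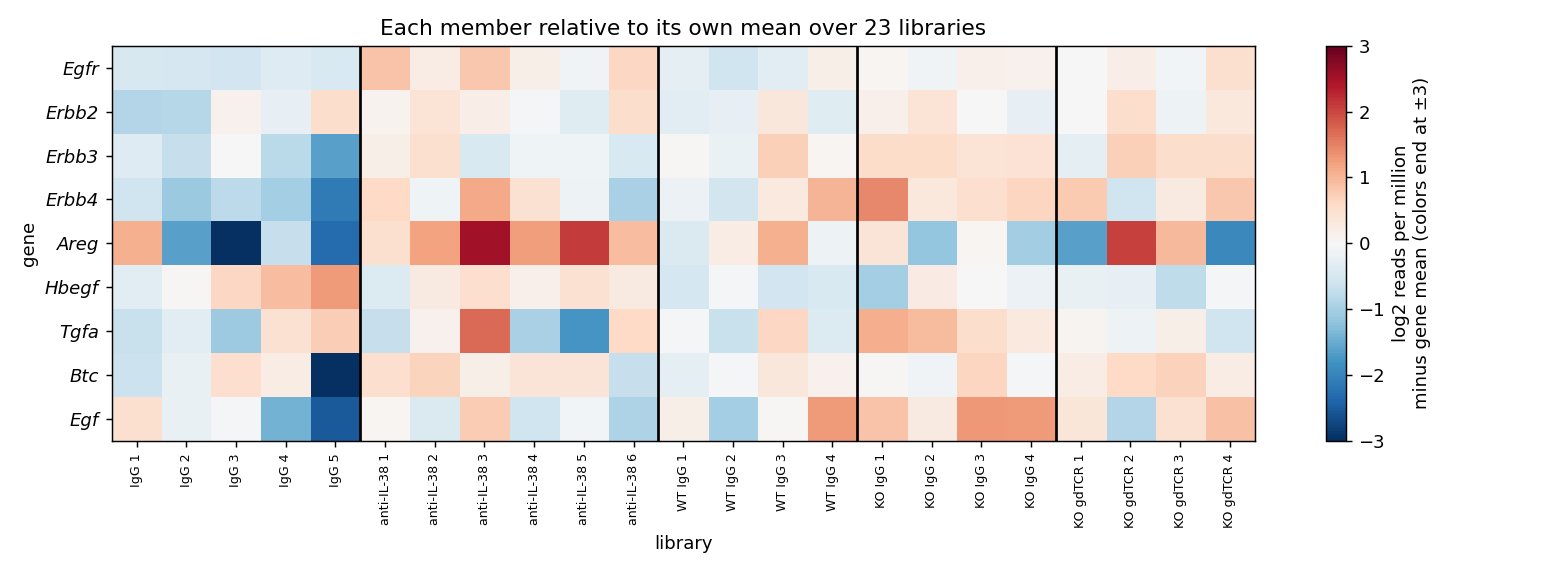
Log2 CPM of 9 members (rows) in 23 libraries (columns, split by group), each gene minus its own mean, with red above and blue below it. IgG replicate 5 is blue for Erbb3, Erbb4, Btc and Egf and red for Erbb2, Hbegf and Tgfa. Ereg is left out, as libraries without a read of it have no log value.

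Over the 19 libraries, which share the sequencing method and differ in depth, some members went together, as a description. Pearson's r on log2 values was 0.80 for Egf and Erbb4 (0.76 over deviations from the group means), 0.72 for Erbb3 and Btc (0.75), and 0.73 for Erbb3 and Erbb4 (0.43). Hbegf ran against Erbb3 (-0.61 and -0.45), and Erbb2 went with Tgfa (0.53 and 0.59). Erbb3 and Btc were also those closest to the luminal sum, with r of 0.87 and 0.74, where Egfr had 0.37 and Areg 0.31. Btc had r = -0.84 with the cell cycle sum and 0.88 with the sum of 7 milk protein genes, and Erbb4 had r = -0.89 with the neutrophil sum. IgG replicate 5 had the lowest Erbb3, Erbb4, Btc and Egf counts and the highest Hbegf count of the 19. It also had the lowest luminal (1946 CPM) and milk protein (1704) sums and the highest cell cycle (1539) and neutrophil (166) sums. The r values without IgG replicate 5 were not computed. Without KO IgG replicate 4, the r over libraries of each pair named here and in the next paragraph moved by at most 0.030. Pairs of members with the macrophage sum, not named here, moved by up to 0.32. Erbb2 went from -0.07 to -0.39 and Erbb4 from -0.51 to -0.77, while Egf stayed near -0.51.

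The genes most like Egfr over the 19 libraries, among 13608 others whose normalized counts averaged 20 or more, were Agpat3 (r = 0.88), Erlec1 (0.85), Enpp5 (0.85), Tvp23b (0.84) and Rnaset2a (0.84). Over deviations from the group means their r was 0.67, 0.67, 0.60, 0.65 and 0.49. Areg was nearest to Pcp4 (0.87) and Slc35f3 (0.82), Erbb2 to Tspan12 (0.86) and Sdc4 (0.85), and Erbb3 to Lingo1 (0.92) and Echdc3 (0.91). Erbb4 was nearest to Slc41a1 (0.86) and Zfp961 (0.86), and Egf to Avl9 (0.88) and Zfp961 (0.87). Btc was nearest to Psapl1 (0.92) and Exph5 (0.92), Tgfa to Paf1 (0.84) and Susd5 (0.84), and Hbegf to Smox (0.87) and Chmp6 (0.86).

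Epgn, Ereg, Areg and Btc are neighbours in this order on chromosome 5, between Mthfd2l and Parm1, in RefSeq on GRCm38.p6. Areg and Btc had r = 0.38 over the 19 libraries and 0.14 over deviations from the group means. Epgn, also an Egfr ligand, had a log2 fold change of -0.71 ± 0.79 (SE; limma, adjusted p = 0.754) for the antibody and 0.93 ± 0.61 (SE; adjusted p = 0.548) for the knockout, or 1.13 without KO IgG replicate 4. Its counts were near the limit of the test, at 0 to 28.9 with anti-IL-38 (mean 9.62) and 6.44 to 10.7 with IgG (mean 8.31), so that the means and the log2 values had opposite signs.

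The γδ TCR comparison set KO anti-γδTCR against KO IgG tumors. Its 4 control libraries are those of the genotype comparison, so the values of both are not independent. Since all 4 treated libraries but only 1 control library stood apart, the treatment and the difference in pseudogene and Gm42418 reads cannot be told apart. Without KO IgG replicate 4 no control library that stood apart remains, and both coincide fully. Macrophage sums were 833 to 1436 CPM with anti-γδTCR and 1347 to 10546 with IgG, and cell cycle sums 286 to 439 and 515 to 715, with 6 of 8 macrophage and all 8 cell cycle genes lower at an unadjusted p under 0.05 and 0 after adjustment in limma. Their part in the differences of the members was not tested.

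Tgfa was the member nearest to passing there. It had normalized counts of 53.6, 42.3, 61.5 and 30.8 with anti-γδTCR and 91.3, 82.6, 64.2 and 56.3 with IgG, so that 3 of the 4 treated tumors lay below every control. In CPM all 4 did, as held for 10.9% of all genes. Its log2 fold change was -0.65 ± 0.28 (SE; 95% interval -1.29 to -0.02; limma, adjusted p = 0.215, unadjusted 0.0439), and -0.77 (adjusted p = 0.127) without KO IgG replicate 4. Against that replicate alone, at 56.3, the treated tumors lay on both sides.

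Egfr had 683, 728, 686 and 864 normalized counts with anti-γδTCR and 596, 526, 666 and 669 with IgG. The groups did not overlap, as held in this direction for 4.57% of all genes, but in CPM only 2 of the 4 treated tumors lay above every control. It had a log2 fold change of 0.27, or 0.31 without KO IgG replicate 4, given as a description. Areg was the most uneven member, with 24.9, 298, 165 and 18.7 against 85.7, 29.3, 71.7 and 34.2. It had 2 treated tumors above and 2 below every control (0.48 ± 0.82 SE; 95% interval -1.35 to 2.30; limma, adjusted p = 0.791), and its value was 0.30 without KO IgG replicate 4 and -0.22 without KO anti-γδTCR replicate 2. Btc had 128, 156, 194 and 119 against 94.8, 86.7, 153 and 96.1, with all 4 treated tumors above the control median and 2 above every control (0.48 ± 0.24 SE; limma, adjusted p = 0.284; 0.43 without KO IgG replicate 4).

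The other members gave log2 fold changes of 0.27 for Erbb2, 0.05 for Erbb3, -0.22 for Erbb4, 0.09 for Hbegf and -0.53 for Egf, with adjusted p-values in limma from 0.420 to 0.911. Without KO IgG replicate 4 these were 0.18, 0.054, -0.23, 0.13 and -0.39. In all, 0 of 8 members passed in limma, edgeR or DESeq2, with or without KO IgG replicate 4. At an unadjusted p under 0.05, 0 were higher, against 12.7% of 16481 genes, and 1 (Tgfa) lower, against 9%. With 1 library left out, 0 were lower without KO IgG replicate 1, 2 or 3 or KO anti-γδTCR replicate 2 or 4, and 1 was higher without KO IgG replicate 3. Of all genes 0% passed in limma (3570 had an unadjusted p under 0.05; edgeR called 0 and DESeq2 1030), whereas without KO IgG replicate 4 limma called 2357.

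Beside the members, 73 other genes of the pathway in 6 lists were read. In the pooled comparison 70 were tested and 0 passed in limma, while 7 were higher and 2 lower at an unadjusted p under 0.05, against 6.42% and 4.13% of all genes. In the antibody comparison 0 of 69 passed, with 6 higher and 0 lower at an unadjusted p under 0.05, against 5.61% and 4.91%. Between genotypes 0 of 70 passed, with 6 higher and 3 lower, against 6.73% and 5.4%. Among the shedding proteases, Adam9 was at 1.04 ± 0.28 (SE; log2 fold change, limma, adjusted p = 0.255) pooled, and Adam10, a main sheddase of Egf and Btc, at 0.34 ± 0.10 (SE; adjusted p = 0.300). Frmd8, a partner of the iRhom proteins that bring Adam17 to the cell surface, was at -0.32 ± 0.10 (SE; adjusted p = 0.316). Of the feedback inhibitors, Lrig1, which promotes the breakdown of ErbB receptors, was at 0.68 ± 0.23 (SE; adjusted p = 0.347) and Dusp6, an ERK phosphatase, at 0.38 ± 0.18 (SE; adjusted p = 0.471).

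Mapk3, which encodes the kinase ERK1, had 2101 to 3537 normalized counts with anti-IL-38 and 593 to 2164 with IgG (log2 fold change 1.22 ± 0.34 SE; limma, adjusted p = 0.382). For the knockout it was at -0.80 (adjusted p = 0.552), and the difference of both effects was 2.02 (adjusted p = 0.564). The neuregulin Nrg4 was at 0.95 ± 0.42 (SE; adjusted p = 0.461) for the antibody and -0.78 ± 0.50 (SE; adjusted p = 0.542) for the knockout, or -0.41 without KO IgG replicate 4. Between genotypes Myc, a transcription factor induced by growth factors, had 137 to 236 normalized counts in KO IgG and 44.3 to 69.3 in WT IgG tumors, without overlap, as held in this direction for 3.66% of all genes (1.56 ± 0.24 SE; limma, adjusted p = 0.103, and 0.0530 without KO IgG replicate 4). Spred2 and Errfi1, inhibitors of Raf and of the Egfr kinase, were at 0.91 ± 0.29 (SE; adjusted p = 0.290) and 0.51 ± 0.21 (SE; adjusted p = 0.365), or 0.93 and 0.67 without that replicate.

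In the γδ TCR comparison 0 of the 70 other pathway genes passed in limma, with 8 higher and 5 lower at an unadjusted p under 0.05, against 12.7% and 9%. Without KO IgG replicate 4, 5 were called higher and 3 lower, against 9.45% and 4.85% of all genes, so the call of these 8 (Adam9, Fosl1, Jun, Myc, Plaur, Ptpn11, Rps6ka1 and Sos2) rests on leaving out that library. In that setting all 4 treated libraries and none of the controls stood apart, so treatment and the state of the libraries cannot be told apart. Plaur, the urokinase receptor, had 6.54 to 37.4 normalized counts with anti-γδTCR and 26.5 to 173 with IgG (log2 fold change -2.66 ± 0.64 SE; limma, adjusted p = 0.0657, and 0.00100 without replicate 4). Its lowest control, at 26.5, was KO IgG replicate 4, which stood apart like the treated libraries and lay within their range. Jun, an AP-1 subunit, was at 0.90 ± 0.18 (SE; adjusted p = 0.0657, and 0.00164 without it) and the phosphatase gene Ptpn11 at 0.60 ± 0.18 (SE; adjusted p = 0.0871, and 0.00618). Myc had 31.9 to 90.5 against 104 to 182 (-1.39 ± 0.35 SE; adjusted p = 0.0657, and 0.0239) and Adam9 35.3 to 57.9 against 57.3 to 158 (-1.29 ± 0.32 SE; adjusted p = 0.0657, and 0.0417). Both share their KO IgG libraries with the genotype comparison, where Adam9 was at 1.40 ± 0.32 (SE; adjusted p = 0.210).

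**Figure D5:**
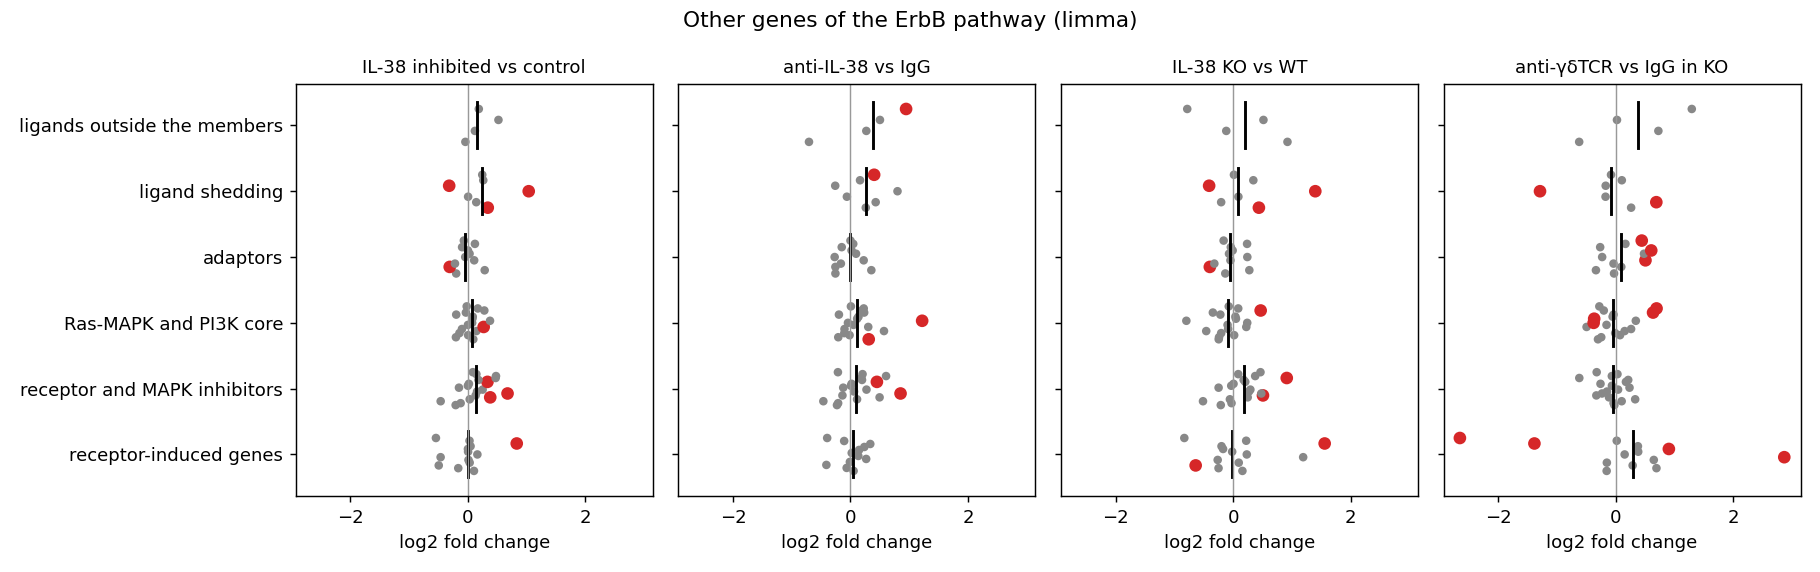
Log2 fold changes of the other pathway genes in 6 lists (rows) and 4 comparisons (panels), with a black line at the median of each list. Large red points mark genes with an unadjusted p under 0.05 in limma, of which there were 9, 6, 9 and 13 from left to right, and 0 genes passed after adjustment.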

How the data were processed

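Tumor RNA of 23 libraries was sequenced from the 3′ end of transcripts with QuantSeq. The submitters' processing notes name STAR, HTSeq, DESeq2 and the build GRCm39, and the study's methods name the BlueBee pipeline. The deposited values are a signal, namely normalized counts, for which the authors scaled the reads of each library by 1 size factor, separately for a table of 19 and a table of 8 libraries. The 4 KO IgG libraries stand in both with identical reads. Dividing by the value of 1 read gave whole numbers for 100% of values (tolerance 0.0001%), and these recovered reads gave depth (6273049 to 15879164 reads, with intervals for counting error only), CPM and the count tests.

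Groups followed the labels. Replicates were separate tumors as far as the labels tell, so p-values measure the spread between these libraries. The column header of KO anti-γδTCR replicate 3 carries the mark rep, whose meaning is not given in the sources used here. Within a group the libraries differed by more than sampling noise (chi-square per degree of freedom from 15.9). The test was limma 3.58.1 in R 4.3.3 with a trended prior, two-sided, on log2(normalized count + 1), which understates changes of low genes, for genes whose normalized counts averaged 5 or more, with Benjamini-Hochberg adjustment over all genes and a threshold of 0.05. The scripts were tested on simulated data. Alternatives were pseudocounts of 0.5 and 5, no filter or an average of 20 or more, TMM scaling, edgeR 4.0.16 quasi-likelihood and DESeq2 1.42.0 on recovered reads, the experiment as a term, a replicate block, and the omission of single libraries. The count tests without KO IgG replicate 4 were added after seeing the data.

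Egfr, planned for a test in the γδ TCR comparison and in the difference of effects, was left as a description there, since those use KO IgG libraries behind its choice. The members, the gene lists and the rule for named genes were chosen with earlier results of these data known. The rule names all 10 members, up to 3 genes of each pathway list with the smallest unadjusted p in a comparison, the 5 genes most correlated with Egfr and the 2 most correlated with each other member. Fosl1 falls under the rule through the difference of effects. It is named, after its values were seen, as a call without KO IgG replicate 4. Promoters came from RefSeq on GRCm38.p6, whose coordinates were not mixed with those of GRCm39.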

Additional observations from a re-analysis of the deposited data

Results flagged for a closer look

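Of 50 groups of 4 to 6 libraries tested, 2 had 1 library farther from the others than Dixon's 95% limit, where chance gives about 1 in 20. Ereg stood at 9.44 normalized counts, or 10 reads, in IgG replicate 1, while the other 4 IgG tumors had at most 1 read. Btc stood at 83.6 normalized counts in anti-IL-38 replicate 6, below the other 5 anti-IL-38 tumors, of which the nearest was at 172.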

How the results depend on the processing

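None of the members counted passed the adjusted threshold under any setting run, and Egfr, given without a test, was not counted. At an unadjusted p under 0.05 the pooled comparison had 4 members. It had 3 with a pseudocount of 5, an average of 20 or more, TMM scaling, DESeq2 or the experiment as a term. The count was 2 in edgeR, 5 with the replicate block, and 3 to 4 with single libraries left out. Without KO IgG replicate 4 it was 2 in edgeR and in DESeq2. Of all genes, the pooled comparison called 0 and then 1 in edgeR, 70 in DESeq2, 1 with the experiment as a term, 80 in DESeq2 without KO IgG replicate 4, and 0 to 23 when single libraries were left out (23 without IgG replicate 3). The antibody comparison called 0, then 75 in DESeq2 and 0 to 6 with single libraries left out (6 without IgG replicate 3). The genotype comparison called 1, then 0 in edgeR, 298 in DESeq2, 10 in edgeR and 483 in DESeq2 without KO IgG replicate 4, and 0 to 7 with single libraries left out. The γδ TCR comparison called 0, then 1030 in DESeq2, and without KO IgG replicate 4 2357 in limma, 2379 in edgeR and 2873 in DESeq2, so the range with single libraries left out was 0 to 2357. The difference of effects called 1, then 0 in edgeR, 10 in DESeq2, 2 in edgeR and 13 in DESeq2 without KO IgG replicate 4, and 0 to 2 with single libraries left out. The cause was not tested. The log2 fold change of Egfr for the antibody was 1.02 in edgeR and 1.03 in DESeq2 against 0.96, and leaving out libraries gave 0.85 to 1.08, with 0.63 to 0.77 pooled and 0.25 to 0.49 for the knockout.

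Same-numbered libraries did not deviate together (correlations from -0.169 to 0.0765). Whether the numbers pair the tumors in another way cannot be told from this. With the replicate number as a block, the antibody comparison called 1 gene, the genotype comparison 0, and Tgfa for the antibody was at -0.083 against 0.06, in a fit that drops anti-IL-38 replicate 6. No other call changed with the block.

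Signs turned for 8 log2 fold changes of members. When single libraries were left out, Hbegf pooled ran from -0.12 (without WT IgG replicate 3) to 0.13 (without IgG replicate 5), turning also without IgG replicates 3 (0.05) and 4 (0.08), anti-IL-38 replicate 1 (0.02) and KO IgG replicates 1 (0.10) and 4 (0.00012). Tgfa for the antibody ran from -0.34 to 0.39 (without anti-IL-38 replicates 3 and 5), and Btc for the knockout from -0.060 to 0.22 (without KO IgG and WT IgG replicate 3). Under γδ TCR blockade, Erbb3 ran from -0.046 to 0.27 (without KO anti-γδTCR replicates 3 and 1), Erbb4 from -0.39 to 0.097 (without replicates 1 and 2), Areg from -0.22 to 1.09 (without replicates 2 and 4), and Hbegf from -0.18 to 0.23 (without KO IgG replicates 1 and 2), with -0.00014 in edgeR. In the difference of effects, Egf ran from -0.67 to 0.091 (without IgG replicate 5 and WT IgG replicate 2). Depth limits Ereg, Egf and Erbb4 most.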

Other observations

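Areg is a known target of the estrogen and progesterone receptors in mammary epithelium. Chosen after their values were seen, Pgr, Wnt4 and Esr1 had Pearson's r of 0.78, 0.78 and 0.69 with Areg over the 19 libraries, and 0.65, 0.51 and 0.56 over deviations from the group means. Without KO IgG replicate 4 they were 0.77, 0.78 and 0.69. These are descriptions, and no test was made.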
